A study of Rattus norvegicus with 18 samples.

Results

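Erythropoietin (EPO), the hormone that drives red cell formation, was compared with saline in the cerebral cortex of rats 2 h after occlusion of the middle cerebral artery, the vessel that feeds much of the lateral cortex. The comparison takes 6 of the 18 arrays of the study, chosen by label: 3 from ischemic rats given EPO and 3 from ischemic rats given saline. The animals were male, of strain Crl:CD(SD)BR, and weighed 250 to 280 g. They carried no genetic change that the labels name, and the labels give neither an age, nor the dose or time of EPO, nor the side of the brain that was sampled. The study also holds sham-operated rats at 2 h and the same 3 groups at 6 h. Each array was hybridized with Cy3-labelled RNA of whole cortex tissue, so fewer cells of a type and less RNA per cell cannot be told apart. Levels are given as log2 signal minus that array's 75th percentile, differences are EPO minus saline ± the standard error of the fit, and each group holds 3 arrays.

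EPO binds its receptor EpoR, which activates the kinase JAK2 and, through it, transcription factors of the STAT family, the PI3 kinase pathway and the MAP kinase pathway. Feedback inhibitors of the SOCS family, among them Cish, are among the textbook targets of STAT5. In brain, EPO receptors are found on neurons, glia and endothelium, and EPO has been tried as a neuroprotective agent in stroke. Ischemic cortex itself switches on immediate-early, heat shock and inflammatory genes within the first hours, so the comparison asks whether EPO moved that response or any other gene at this early time.

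Both groups held 1 array with a steep response to the spiked-in control transcripts. The scanner software fits their log signal against log amount, and this slope was 0.941, 0.828 and 0.866 on saline replicates 1 to 3 and 0.938, 0.851 and 0.847 on EPO replicates 1 to 3. The 2 steep arrays had 61.6% and 62.3% of probes well above background, against 69.9% to 80.6% on the other 4. Group means of the slope were 0.878 ± 0.058 (SD) with saline and 0.879 ± 0.051 (SD) with EPO (two-sided exact permutation test, p = 1, where the smallest p that 3 against 3 allows is 0.1). The first principal component of the 6 arrays, with 85.9% of the variance, parted the steep arrays from the others and not EPO from saline. The steep EPO array came from slide 5, which was scanned in a second batch, and the groups shared only slide 4, which held replicate 3 of each.

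No gene passed the test of EPO against saline at 2 h. Of 28637 probes tested, 0 were called at an adjusted p under 0.05 (limma, Benjamini-Hochberg; percent called 0), and the smallest adjusted p was 1.00. At an unadjusted p under 0.05 in limma there were 379 probes (1.32%), of which 185 were higher and 194 lower with EPO. Without EPO replicate 1 that count was 861, again with 0 called. With 1 probe standing for each of 12397 named genes, 73 genes were higher (0.589%) and 77 lower (0.621%) at that unadjusted level. The 3 EPO arrays lay wholly above the 3 saline arrays for 319 genes (2.57%) and wholly below them for 246 genes (1.98%). At 6 h, in other animals, the same comparison also called 0 probes (smallest adjusted p = 0.777 in limma), with 1197 probes (4.18%) at an unadjusted p under 0.05, a count that ran from 563 to 3548 when single arrays were left out. The test of whether the EPO difference itself differed between 6 h and 2 h called 0 probes (smallest adjusted p = 0.917), with 668 (2.33%) at an unadjusted p under 0.05 (389 to 1671 with single arrays left out, and 1 called probe without saline replicate 3 at 2 h).

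**Figure D1:**
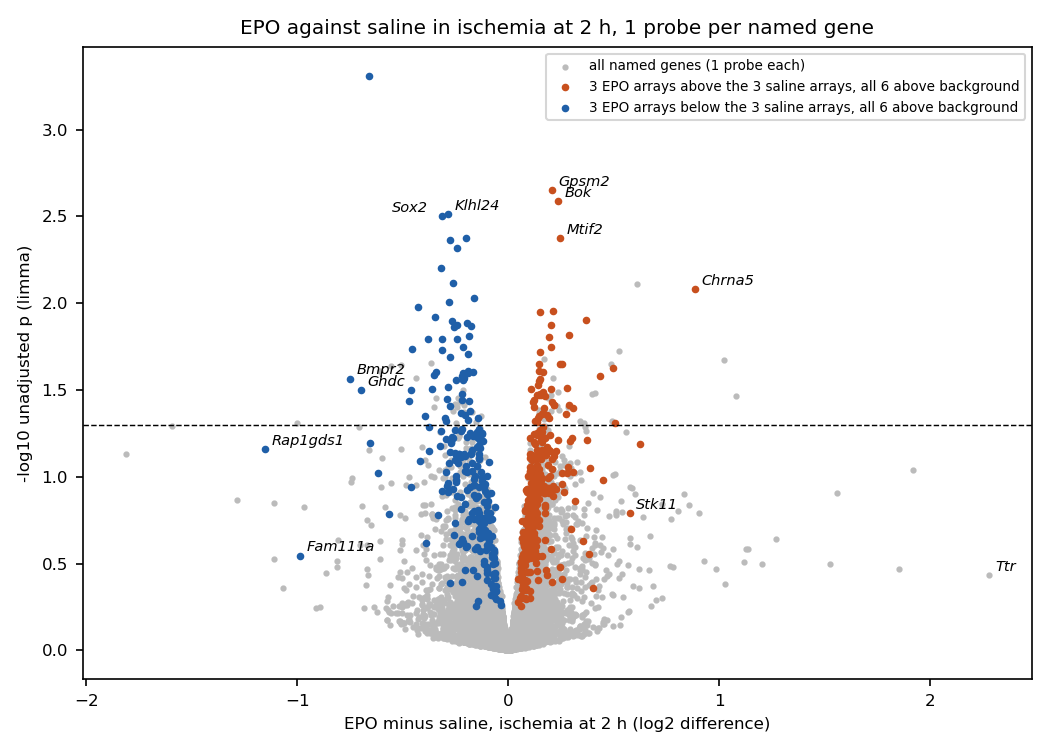
Each point is 1 named gene, with the EPO minus saline difference at 2 h on the log2 scale on the x axis and −log10 of limma's unadjusted p on the y axis; the dashed line marks an unadjusted p of 0.05, and orange and blue points are genes well above background on all 6 arrays whose groups do not overlap. Most genes lie close to 0, and Ttr lies farthest to the right with a p of 0.37.

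The differences were small for most genes, and the intervals show how large an effect the arrays could have hidden. Over the 12397 named genes the median difference was 0.01, and the 5th and 95th percentiles were −0.22 and 0.18. The median half-width of the 95% confidence interval of a difference was 0.24. The whole interval lay within a 2-fold change in either direction for 10717 genes (86.4%), and for 10508 of the 11015 genes well above background on all 6 arrays (95.4%). Only 21 genes had a difference beyond 2-fold, 13 higher and 8 lower. Of these, 3 were well above background on all 6 arrays: the choroid plexus genes Ttr and Sostdc1, taken up below, and Rap1gds1.

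The genes of smallest p on the lower side included Sox2, Klhl24 and Scn3a, and none passed the adjusted test (adjusted p = 1.00 for each in limma). Sox2, a transcription factor of neural progenitors and glia, read 1.99, 2.07 and 1.95 with saline and 1.72, 1.76 and 1.59 with EPO. The difference was −0.31 ± 0.09 (unadjusted p = 0.00314), and the sham arrays read 1.61, 1.61 and 1.81, within or near the EPO range. Klhl24, a kelch-family adaptor of ubiquitin ligases, read 0.85, 0.89 and 0.82 with saline and 0.50, 0.64 and 0.57 with EPO. Its difference was −0.29 ± 0.08 (unadjusted p = 0.00308), and its sham arrays, at 0.83, 0.71 and 0.94, overlapped the saline arrays and not the EPO arrays. Scn3a, a voltage-gated sodium channel subunit, read 1.5, 1.46 and 1.46 with saline and 1.31, 1.29 and 1.1 with EPO, while sham read 1.25 to 1.26. For Scn3a the sham arrays fell within the range of the EPO arrays.

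The other genes on the lower side by the same rule were Slitrk3 (−0.20), a synaptic adhesion protein, Ntm (−0.28), the cell adhesion protein neurotrimin, Arid5b (−0.32), a DNA-binding regulator, Plpp3 (−0.26), a lipid phosphate phosphatase, Wnt2 (−0.16), a secreted Wnt ligand, Tspyl4 (−0.28), Ddx6 (−0.43), an RNA helicase of processing bodies, and Wnk1 (−0.35), a kinase that regulates ion transport. Plpp3 is one of the most even of them, with EPO arrays at 3.34, 3.32 and 3.31 against saline arrays at 3.60, 3.54 and 3.62 and sham arrays from 3.52 to 3.58. A second probe for Plpp3 gave a difference of 0.12, in the other direction, and the 3 probes for Ddx6 ran from −0.43 to −0.09.

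On the higher side, the differences of the 12 genes of smallest p lay between 0.15 and 0.37 apart from that of Chrna5. Gpsm2, which links G proteins to orientation of the mitotic spindle, read −2.15, −2.12 and −2.13 with saline and −1.93, −1.85 and −2.00 with EPO. The difference was 0.21 ± 0.05 (unadjusted p = 0.00224). Bok, a member of the Bcl-2 family of cell death regulators, read −0.87, −0.99 and −0.92 with saline and −0.70, −0.69 and −0.67 with EPO, and its difference was 0.24 ± 0.06 (unadjusted p = 0.00259). The sham arrays of Gpsm2 lay between −1.89 and −1.78, above the saline arrays, and those of Bok between −0.82 and −0.80, between the saline and the EPO arrays. Mtif2, an initiation factor of mitochondrial translation, read 1.96, 2.05 and 2.05 with saline and 2.31, 2.23 and 2.26 with EPO (difference 0.25 ± 0.07), and its sham arrays, from 2.07 to 2.10, lay nearer the saline arrays.

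Chrna5, the alpha-5 subunit of nicotinic acetylcholine receptors, had the largest difference among genes well above background on all 6 arrays whose groups did not overlap and that were higher with EPO. It read −2.41, −2.58 and −2.30 with saline and −1.11, −2.28 and −1.25 with EPO. The difference was 0.88 ± 0.29 (unadjusted p = 0.00833), a 1.85-fold change with a 95% interval from 1.20 to 2.83. EPO replicates 1 and 3 stood more than a log2 unit above their saline counterparts, while EPO replicate 2 barely cleared the saline range. The remaining 8 genes were Cluap1 (0.21), a ciliary transport protein, H2bc18 (0.15), a histone H2B gene, RT1-Da (0.37), a class II histocompatibility chain, Csrp2 (0.20), a LIM-domain protein, Zfp94 (0.29), Herc4 (0.20), a ubiquitin ligase, Chtf8 (0.20), a factor of sister chromatid cohesion, and Wdr12 (0.15), a ribosome assembly factor. The sham mean was nearer the EPO mean for 3 of the 12 genes on the higher side and nearer the saline mean for 9. On the lower side it was nearer the EPO mean for 5 of the 11 genes described and nearer the saline mean for 6. These genes were chosen for saline arrays that lie apart from EPO arrays, so the place of sham is a description.

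**Figure D2:**
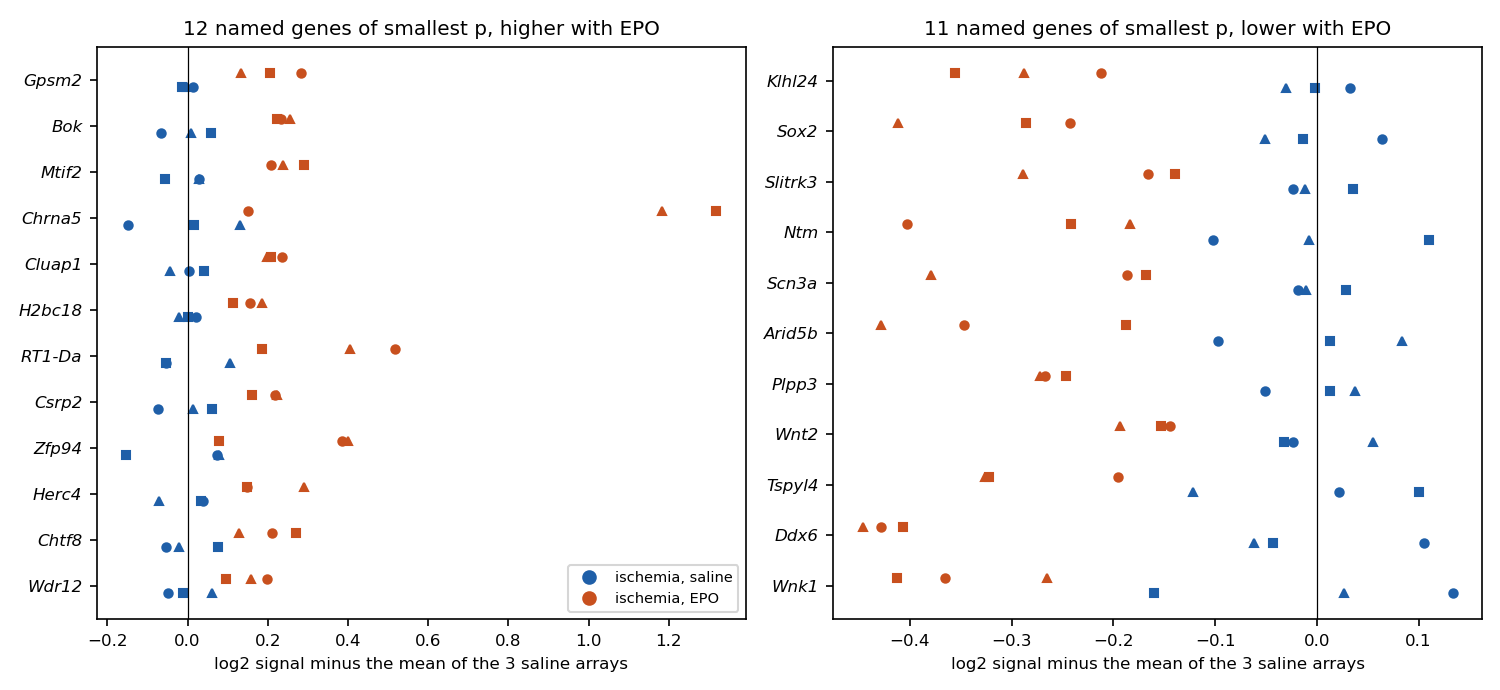
For the genes of smallest unadjusted p that the text names, 12 higher and 11 lower with EPO, the x axis gives the log2 signal of each of the 6 arrays minus the mean of the 3 saline arrays (blue: saline, orange: EPO; square, circle and triangle: replicates 1, 2 and 3). These genes were selected for groups that do not overlap; most EPO arrays lie within 0.5 of the saline mean, and Chrna5 reaches farthest.

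Among the largest differences on the lower side, precision was poor. Rap1gds1, an exchange factor for small GTPases, read −1.19, −2.20 and −1.66 with saline and −2.47, −3.64 and −2.40 with EPO. The difference of −1.15 ± 0.58 had an unadjusted p of 0.0693, and a second Rap1gds1 probe gave −0.17. Fam111a, a nuclear protease, differed by −0.99 ± 0.89, and Bmpr2, the type II receptor for bone morphogenetic proteins, by −0.75 ± 0.30. Bmpr2 read −1.5, −1.81 and −1.76 with saline and −2.39, −2.33 and −2.61 with EPO, and its other probe gave −0.42. Ghdc (−0.70) and the potassium channel gene Kcnd3 (−0.66) were also among them. On the higher side, after Chrna5, the largest included those of Jak3 (0.63), a kinase of cytokine receptors, Stk11 (0.58), the kinase LKB1 that activates AMPK, Chp2 (0.51), a calcineurin-like calcium-binding protein, and Slc2a10 (0.45), a glucose transporter. Jak3 read −0.05, 0.04 and 0.17 with saline and 0.88, 0.77 and 0.38 with EPO (unadjusted p = 0.0651). A second probe for Stk11 gave 0.07.

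The arrays at 6 h come from other animals, so the direction of these genes was also read there. The spike-in slopes at 6 h were 0.914, 0.852 and 0.941 on saline replicates 1 to 3. On EPO replicates 1 to 3 they were 0.863, 0.852 and 0.926. The steep arrays were thus saline replicates 1 and 3 and EPO replicate 3, and the groups were not balanced in slope. Of the 12 genes on the higher side at 2 h, 2 were higher and 10 lower with EPO at 6 h. Of the 12 on the lower side, 7 were lower and 5 higher. Of the 319 genes whose EPO arrays lay wholly above the saline arrays at 2 h, 120 (37.6%) were higher with EPO at 6 h, against 54.6% of all named genes. Of the 246 that lay wholly below, 147 (59.8%) were lower at 6 h, against 45.4% of all named genes. Both of these groups of genes thus leaned to lower values at 6 h, with median differences of −0.03 and −0.04 against 0.02 over all named genes. Of the 319 and 246 genes, 312 and 239 were well above background on all 6 arrays at 2 h. For genes that bright the 95th percentile of the 6 h differences was 0.46, against 0.89 over all named genes. All named genes, which include dimmer ones, are therefore not a matched baseline. Sox2 was 0.14 at 6 h, against −0.31 at 2 h, and its difference between times was 0.45 ± 0.12 (unadjusted p = 0.00261, adjusted p = 0.917 in limma). That contrast contains the 2 h difference for which Sox2 was chosen, so its unadjusted p is not independent of the choice.

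The components of EPO signalling gave no call. Of 23 measured members of the EPO receptor and JAK-STAT list, 0 were called, 1 (lower with EPO) passed an unadjusted p under 0.05, and 9 had a difference above 0 (39.1%). Over all 12397 named genes, 0.621% were lower at that level and 6614 (53.4%) had a difference above 0. The list's median difference was −0.01, with single genes between −0.25 and 0.16. Epor, the receptor, was dim and read −3.52, −3.51 and −3.30 with saline and −3.97, −3.80 and −2.91 with EPO, so the groups overlapped. Its difference was −0.12 ± 0.34, with a 95% interval from 0.55-fold to 1.53-fold. Jak2, the kinase bound to the receptor, differed by −0.00 ± 0.11, Stat5a by 0.01 ± 0.12 and Stat5b by −0.01 ± 0.14, the 2 transcription factors most used by the receptor. Stat3, a related factor that cytokines of the interleukin-6 family activate, differed by 0.15 ± 0.10 on its brighter probe and by −0.36 on its other probe.

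Feedback and target genes of the pathway also lay close to 0. Socs2 differed by −0.16 ± 0.22 and Socs3 by 0.02 ± 0.22, both of them inhibitors of cytokine receptor signalling. Pim1, a survival kinase, differed by 0.13 ± 0.60, and its interval was wide, from 0.44-fold to 2.70-fold. Bcl2l1, which encodes the survival protein Bcl-xL, was measured tightly on its brightest probe. That probe read 2.60, 2.58 and 2.72 with saline and 2.59, 2.57 and 2.62 with EPO. Its difference of −0.04 ± 0.06 has an interval from 0.88-fold to 1.07-fold. The 3 probes for Bcl2l1 ran from −0.04 to 0.18. The lowest 2 members were a docking protein and a phosphatase that act at the receptor. Gab1, a docking protein, read −2.32, −2.30 and −2.25 with saline and −2.61, −2.57 and −2.45 with EPO (−0.25 ± 0.13), and Ptpn11, the phosphatase SHP2, differed by −0.25 ± 0.11 (unadjusted p = 0.0487). For Ptpn11 the steep pair of arrays gave 0.17 and the other 4 gave −0.45. The probes for Epo itself and for Csf2rb, a chain shared by several cytokine receptors, were not bright enough to be tested: each was well above background on at most 1 array of a group at 2 h.

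Cish is a textbook target of STAT5, so its promoter is given here beside its level. It was searched on both strands, over the 250 bases before the start of the gene in the RefSeq annotation of GRCr8, for the STAT motif TTCNNNGAA, which reads the same on both strands. That motif is found in 7.67% of the 33469 rat promoters in the same table. Of the 9 promoters of EPO pathway genes searched, only that of Cish holds it. The Cish promoter has 4 such motifs, marked in capitals in the 160 bases at chr8:116850719-116850878 on the plus strand.

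Cish: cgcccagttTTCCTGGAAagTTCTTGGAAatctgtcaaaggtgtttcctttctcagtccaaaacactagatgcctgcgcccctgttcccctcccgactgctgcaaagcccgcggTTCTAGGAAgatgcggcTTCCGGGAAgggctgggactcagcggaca

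On the arrays Cish read −2.73, −2.53 and −2.82 with saline and −3.09, −2.84 and −2.68 with EPO. The groups overlapped, and the difference was −0.17 ± 0.16, with a 95% interval from 0.70-fold to 1.12-fold. An increase of Cish beyond 1.12-fold thus lies outside that interval.

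Immediate-early and plasticity genes, which neuronal activity and ischemia switch on, gave no call between EPO and saline, and several stood far above sham in both ischemic groups. Of 27 measured immediate-early genes, 0 were called, 0 passed an unadjusted p under 0.05 in either direction, and the median difference was −0.04. Arc, an immediate-early gene of synaptic plasticity, read 2.64, 2.58 and 2.25 in sham, 4.99, 5.30 and 5.33 with saline and 4.53, 5.37 and 4.70 with EPO. The EPO arrays overlapped the saline arrays, and the difference was −0.34 ± 0.24 (unadjusted p = 0.174). Egr1, a zinc finger immediate-early factor, read 4.66, 4.75 and 4.88 with saline and 4.69, 4.84 and 4.63 with EPO. Its difference was −0.04 ± 0.14, with a 95% interval from 0.79-fold to 1.20-fold.

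Fos, a subunit of the AP-1 transcription factor, differed by −0.23 ± 0.31, and Nr4a1, a nuclear receptor of the same early wave, by −0.14 ± 0.24. Npas4, a factor induced by calcium entry in neurons, was the most scattered: it read −0.02, 0.31 and 0.82 with saline and −0.94, 0.78 and −0.17 with EPO (−0.48 ± 0.50). Egr2 and Egr4, relatives of Egr1, differed by 0.12 ± 0.30 and −0.08 ± 0.21. Bdnf, the neurotrophin that supports synapses, read −0.76, −1.1 and −1.0 in sham, 0.40, 0.37 and 0.95 with saline and 0.80, 0.71 and 0.59 with EPO. All ischemic arrays exceeded sham, while EPO and saline overlapped (0.12 ± 0.20, interval from 0.81-fold to 1.47-fold). Of 25 measured activity-regulated plasticity genes, 0 were called and the median difference was 0.01. The EPO arrays lay wholly above the saline arrays for 2 of them (8%, against 2.57% of all named genes), Nptx2, a pentraxin of excitatory synapses (0.24 ± 0.24), and Cpeb4, a regulator of translation (0.16 ± 0.09). Homer1, a scaffold of excitatory synapses, differed by −0.09 ± 0.07 on its brighter probe and by 0.36 on its other probe.

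**Figure D3:**
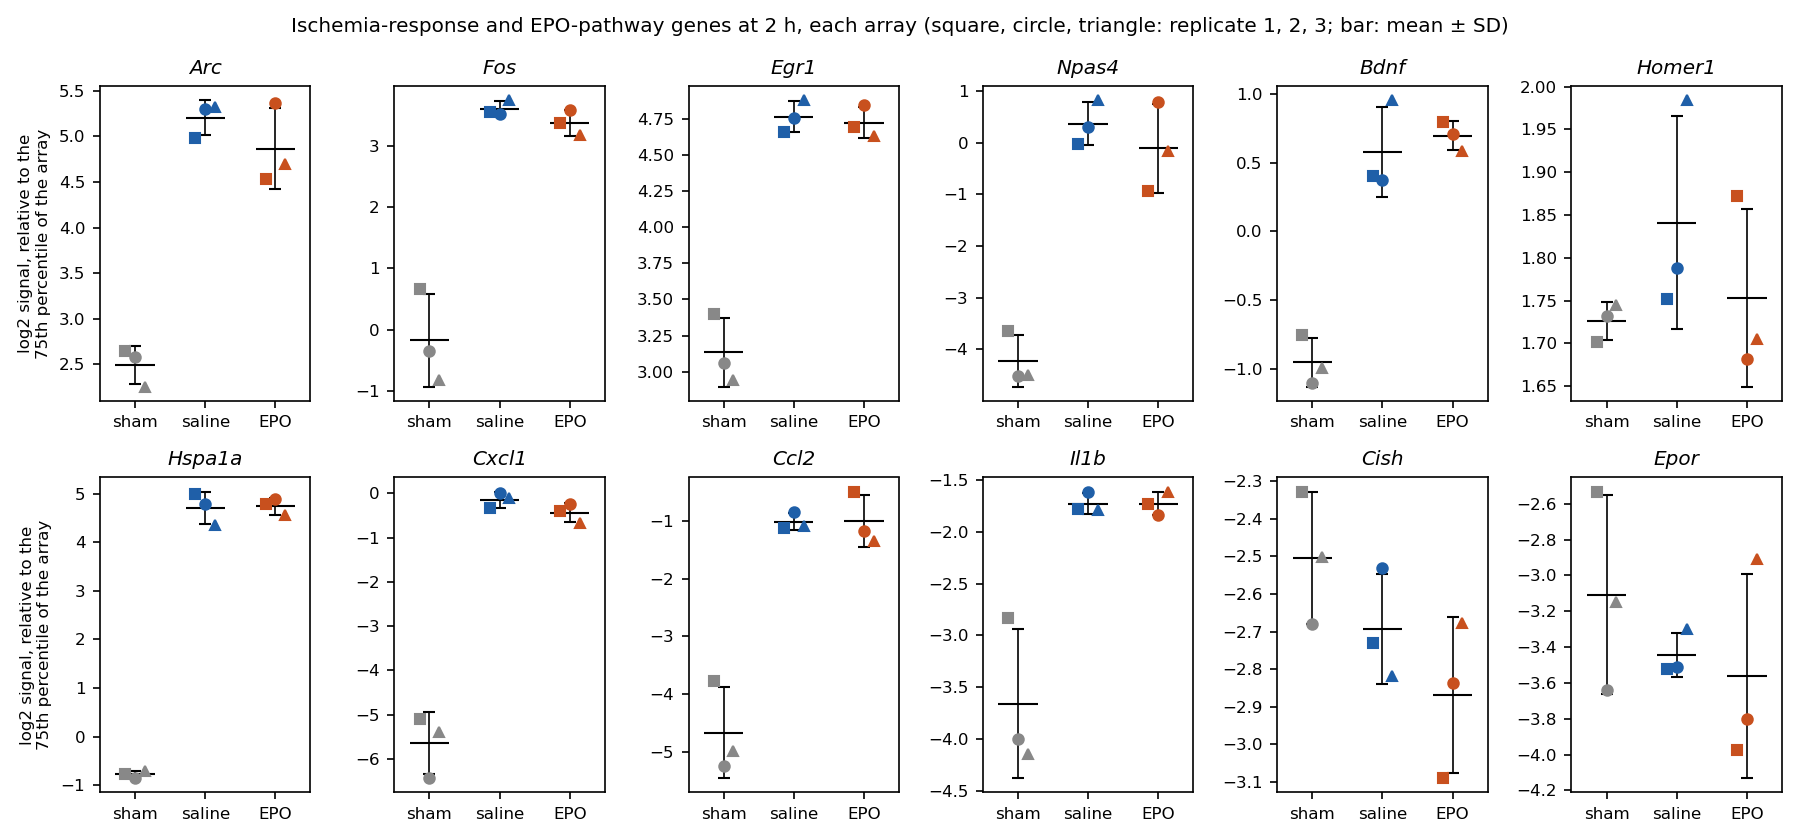
Each panel gives 1 gene at 2 h, with log2 signal on the y axis (0 is the array's 75th percentile) for the 3 sham, 3 saline and 3 EPO arrays (points), their mean (bar) and SD (whisker). Arc, Fos, Egr1, Npas4, Bdnf, Hspa1a, Cxcl1, Ccl2 and Il1b stand above sham in both ischemic groups, and in every panel the EPO and saline points overlap.

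Immediate-early promoters often carry a CArG box, the motif bound by serum response factor, which is found in 1.5% of the same 33469 promoters. Of 10 promoters of immediate-early and plasticity genes searched, 2 hold the box, those of Egr1 and Egr2, and 8 do not, among them those of Egr4, Fosl2, Npas4 and Bdnf. The Egr2 promoter, shown because Egr2 has the largest of the 6 h differences given next, holds 1, in capitals here, within 50 bases at chr20:21054495-21054544 on the minus strand.

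Egr2: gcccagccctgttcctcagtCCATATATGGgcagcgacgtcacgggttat

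Some of these genes were higher with EPO at 6 h, where EPO and saline were compared in other animals. There saline replicates 1 and 3 and EPO replicate 3 were steep arrays, so slope and treatment were not balanced. The median 6 h difference was 0.38 over the immediate-early genes and 0.23 over the plasticity genes, against 0.02 over all named genes. Not every gene described at 2 h is given here. Egr2 was 1.04 ± 0.30 higher with EPO at 6 h, against 0.12 ± 0.30 at 2 h. Arc differed by 0.90 ± 0.24 at 6 h, Egr4 by 0.89 ± 0.21, Fosl2, a Fos-related AP-1 subunit, by 0.89 ± 0.17, Bdnf by 0.87 ± 0.20 and Egr1 by 0.64 ± 0.14. The change in the EPO difference from 2 h to 6 h was 1.24 ± 0.34 for Arc (unadjusted p = 0.00264), 0.90 ± 0.24 for Fosl2 (unadjusted p = 0.00247) and 0.68 ± 0.20 for Egr1 (unadjusted p = 0.00495). None of these passed the adjusted test, neither the 6 h differences (adjusted p = 0.777 each in limma) nor the changes between times (adjusted p = 0.917 each). The genes given here were picked because they were higher with EPO at 6 h. The change between times contains that 6 h difference, so its unadjusted p is not independent of the choice.

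Stress, hypoxia and inflammatory genes gave intervals of unequal width. Hspa1a, the inducible HSP70 chaperone, read −0.76, −0.86 and −0.71 in sham, 5.0, 4.78 and 4.36 with saline and 4.78, 4.90 and 4.55 with EPO. Its difference was 0.03 ± 0.17, with a 95% interval from 0.80-fold to 1.31-fold. Of 20 heat shock and co-chaperone genes, 0 were called, the median difference was 0.04 and all 20 intervals lay within 2-fold. Dnaja1, an HSP70 co-chaperone, was the 1 member (5.0%, against 2.57% of all named genes) whose EPO arrays lay wholly above the saline arrays (0.15 ± 0.09). Of 18 genes of the unfolded protein and integrated stress response, 0 were called and all 18 intervals lay within 2-fold. For 3 of these (16.7%, against 2.57% of all named genes) the EPO arrays lay wholly above the saline arrays: Hsp90b1, the chaperone GRP94 (0.14 ± 0.08), Creld2, a secreted stress protein (0.17 ± 0.10), and Ern1, the stress sensor IRE1 (0.08 ± 0.07).

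Hypoxia targets had the highest median of the pathway lists, and it was small. Of 26 measured, 19 had a difference above 0 (73.1%, against 53.4% of all named genes), the median was 0.05 and 0 were called. Ldha, lactate dehydrogenase (0.08 ± 0.07), and P4ha1, a collagen hydroxylase (0.13 ± 0.11), were the 2 (7.69%, against 2.57% of all named genes) whose EPO arrays lay wholly above the saline arrays. Vegfa, the endothelial growth factor, differed by 0.08 ± 0.10, and Hmox1, haem oxygenase, by 0.13 ± 0.17. Among 22 cytokines and chemokines 0 were called, 15 intervals lay within 2-fold and the median difference was −0.01. Cxcl1, which attracts neutrophils, read −5.09, −6.44 and −5.40 in sham, −0.34, 0.01 and −0.09 with saline and −0.40, −0.25 and −0.67 with EPO. The groups overlapped, and the difference was −0.30 ± 0.33. Il1b, an early cytokine of injury, read −1.78, −1.62 and −1.79 with saline and −1.74, −1.84 and −1.62 with EPO, and its difference was −0.00 ± 0.29. Ccl2, which attracts monocytes, differed by 0.01 ± 0.35. The intervals of Il1b (0.65-fold to 1.54-fold) and Ccl2 (0.59-fold to 1.71-fold) leave moderate changes in either direction possible.

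Growth factors and their receptors had the lowest median of the pathway lists. Of 22 measured, 3 had a difference above 0 (13.6%, against 53.4% of all named genes). At an unadjusted p under 0.05, 2 were lower, against 0.621% of all named genes; the median was −0.09, and 0 were called. Gdnf, the glial neurotrophic factor, read 0.13, 0.34 and 0.26 with saline and −0.45, −0.06 and 0.21 with EPO (−0.34 ± 0.15, unadjusted p = 0.0351). Fgf2, a basic fibroblast growth factor, differed by −0.24 ± 0.11 (unadjusted p = 0.0397), yet its other probe gave 0.41. The feedback inhibitors of the MAP kinase pathway had a like median of −0.09 over 14 genes, 3 of them above 0 (21.4%). Of 21 glutamate receptor subunits 2 were lower at an unadjusted p under 0.05, against 0.621% of all named genes: the AMPA receptor subunit Gria4 (−0.35 ± 0.15) and the NMDA receptor subunit Grin2d (−0.29 ± 0.13). For Gria4 the steep pair gave −0.67 and the other 4 arrays −0.19, and a second probe gave 0.02. For Grin2d the same values were −0.63 and −0.13. Lox, the matrix cross-linking enzyme, was the 1 member of all 23 pathway lists that was higher at an unadjusted p under 0.05 (0.28 ± 0.12), a level that 0.589% of all named genes reached. Its EPO arrays lay wholly above its saline arrays, but the steep pair gave 0.59 and the other 4 arrays 0.12, and its other probe gave −0.19.

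The haemoglobin, haem synthesis and iron genes, which EPO controls in the bone marrow, gave no call in cortex. Of 16 measured, 11 had a difference above 0 (68.8%, against 53.4% of all named genes) and the median was 0.03. Hbb, beta-globin, differed by 0.06 ± 0.21, and Alas2, the haem synthesis enzyme of red cell precursors, by 0.11 ± 0.21. Among the broad housekeeping lists, 18 oxidative phosphorylation subunits had a median difference of 0.04, with 16 above 0 (88.9%), and 20 cytosolic ribosomal proteins had a median of −0.03. Every interval in these 2 lists lay within 2-fold.

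**Figure D4:**
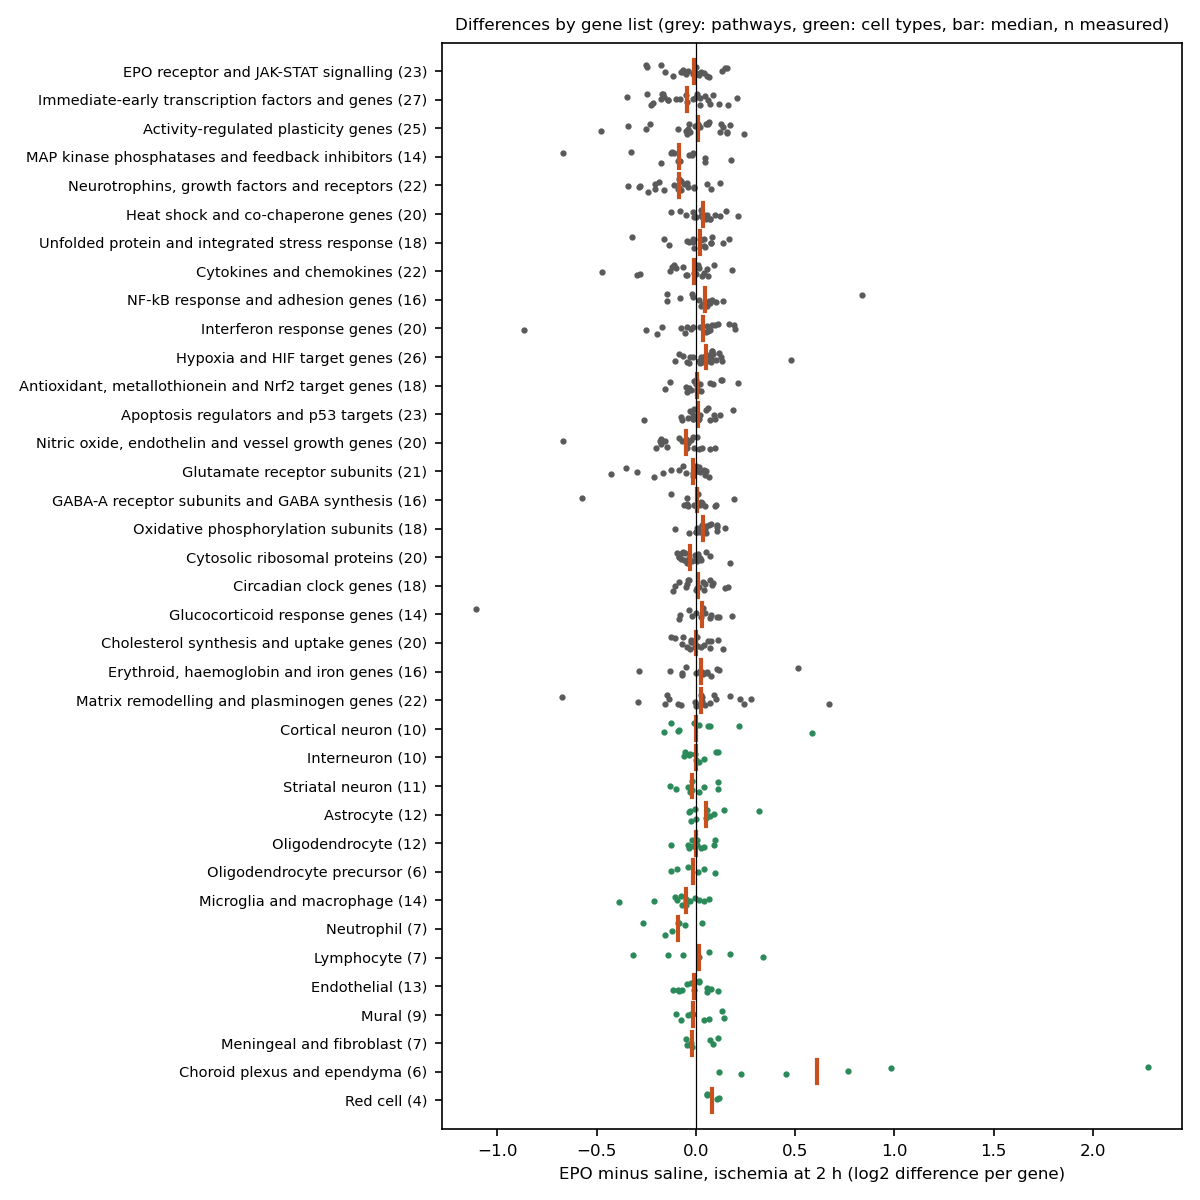
Each point is 1 measured gene, with its EPO minus saline difference at 2 h on the log2 scale on the x axis, 1 row for each list with the number of genes measured (grey: pathways, green: cell types), and an orange bar at the list's median. The medians of all lists lie between −0.09 and 0.08 except that of the choroid plexus and ependyma markers, at 0.61.

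Genes that ischemia moved at 6 h had median EPO differences near 0 at 2 h. The 878 genes (7.08%) called higher in ischemia than in sham at 6 h had a median difference of 0.02 at 2 h. Their 6 h differences come from other arrays, but the spread used for the call was estimated over all 18 arrays. The EPO arrays lay wholly above the saline arrays for 56 of them (6.38%) and wholly below for 18 (2.05%), against 2.57% and 1.98% of all named genes. The 555 genes (4.48%) called lower at 6 h had a median difference of 0.00, with 18 wholly higher (3.24%) and 16 wholly lower (2.88%). Among the 176 genes that were at least 2-fold higher at 6 h, 4 were wholly higher (2.27%) and 2 wholly lower (1.14%), and the median was 0.01. Genes with a small spread on the 2 h arrays are favoured both for the 6 h call and for groups that do not overlap. These lists are therefore not independent of the counts of groups that do not overlap.

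Cell type markers checked the tissue and the evenness of dissection. All 10 cortical neuron markers measured were well above background on all 6 arrays, and their summed level ran from 7.20 to 7.38 with saline and from 7.26 to 7.30 with EPO. All 11 striatal neuron markers were also well above background, with summed levels from 5.63 to 5.90 and from 5.75 to 5.85. Markers of astrocytes (median difference 0.05), oligodendrocytes (0.00), endothelium (−0.01) and mural cells (−0.01) lay close to 0. Gfap, the astrocyte filament, read 1.75, 1.83 and 2.12 with saline and 1.93, 2.49 and 2.23 with EPO (0.32 ± 0.19, unadjusted p = 0.109). Of 14 microglia and macrophage markers, 3 had a difference above 0 (21.4%, against 53.4% of all named genes), and the median was −0.05. Cd68, a lysosomal protein of phagocytes, differed by −0.21 ± 0.09 (unadjusted p = 0.0388). Camk2a, a kinase of excitatory neurons, differed by 0.58 ± 0.35, with a second probe at 0.07. On the first Camk2a probe the steep pair of arrays gave −0.57 and the other arrays 1.16. Lymphocyte markers were dim: of 7 measured, 2 were well above background on all 6 arrays.

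Markers of the choroid plexus differed widely between single arrays within each group. Ttr, transthyretin, the main secreted protein of choroid plexus epithelium, read −1.98, −1.62 and 3.92 with saline and 4.76, 3.53 and −1.14 with EPO. Each group thus held both high and low arrays, with 1 high array of saline and 2 of EPO, and sham read 3.99, 0.80 and 5.28. The SD was 3.31 with saline, 3.12 with EPO and 2.31 in sham, where no array was as low as the 3 low ischemic arrays. The difference of 2.28 ± 2.46 had an unadjusted p of 0.37. Folr1, a folate receptor, Kcnj13, a potassium channel, and Otx2, a transcription factor, all of choroid plexus epithelium, read, of the 6 ischemic arrays, highest on EPO replicates 1 and 2 and saline replicate 3, with differences of 0.99, 0.77 and 0.45. All 6 markers measured were above 0, with a median of 0.61 that was 2.40 on the steep pair of arrays and 0.04 on the other 4. Sostdc1 (1.86), Mfrp (1.53) and F5 (1.20), 3 of the 13 genes more than 2-fold higher with EPO, were low on saline replicate 1 and high on EPO replicates 1 and 2. The summed level of the marker list ran from 0.93 to 4.17 with saline and from 1.26 to 4.95 with EPO. With the level of these markers as a covariate, chosen after seeing the data, 0 probes were called and 490 had an unadjusted p under 0.05 in limma.

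**Figure D5:**
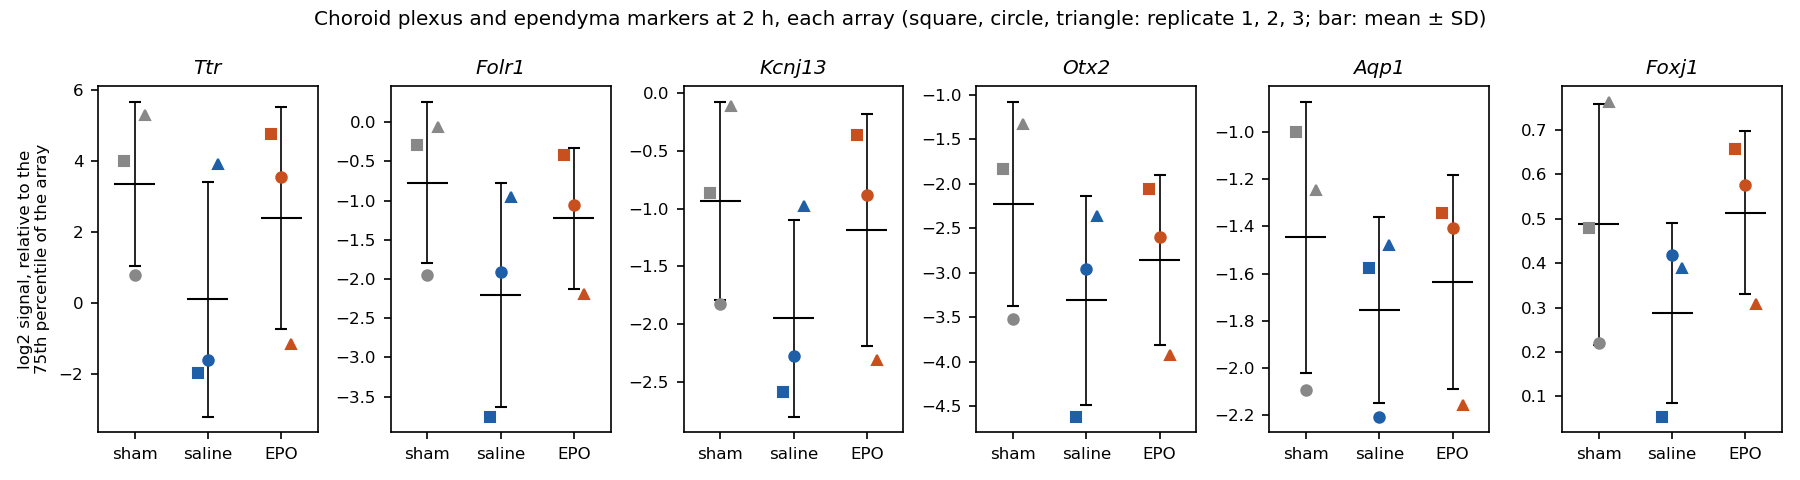
Each panel gives 1 marker of choroid plexus or ependyma at 2 h, with log2 signal on the y axis (0 is the array's 75th percentile) for the 3 sham, 3 saline and 3 EPO arrays (points), their mean (bar) and SD (whisker). In the Ttr panel saline replicate 3 and EPO replicates 1 and 2 stand high while the other 3 ischemic arrays stand low, and all 3 sham arrays lie above those 3.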

How the data were processed

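RNA of rat cortex was measured on 1-colour Agilent arrays, 18 in all. The deposited files come from Agilent Feature Extraction 9.1.1.1, per the submitters' processing notes, and give each spot's processed intensity, background-subtracted per the file headers. The authors' deposited table of log2 values equals the log2 processed intensity without scaling between arrays. The genome build is not given in the sources used here.

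Control spots and outlier flags were left out, spots of 1 probe were averaged as log2, and each array was scaled by subtracting its 75th percentile. A probe was tested if some group had it well above background on all its arrays (28637 probes). Groups came from the labels. 1 limma model (3.58.1, R 4.3.3, with statmod 1.5.0) of group means over 18 arrays, with 12 residual degrees of freedom, gave two-sided tests with Benjamini-Hochberg adjustment at 0.05. Nothing in the labels says more of how the samples were kept separate, so p-values measure the spread between these arrays. The number of arrays limits the precision. Exact permutation tests used scipy 1.17.1. Each gene was represented by its brightest probe, named through RefSeq accession (10735 probes), symbol (5577) or synonym (3730). The 20970 probes with only a name in the file could enter the probe counts but not the gene counts, lists or figures.

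Genes named in the text are the 12 of smallest unadjusted p in each direction and the 6 of largest difference, with groups that do not overlap and all 6 arrays above background, the 3 members of smallest p per list, and a fixed set of response genes; a few others, such as Sostdc1, were chosen after their values were seen. Genes of smallest p at 6 h or in the change between times could also be named, Fosl2 among them. Not every gene under this rule is reported here. The members, the 23 pathway and 14 cell type lists and this rule were chosen with earlier results of these data known. The fit was tested on simulated data with independent noise for each probe and array. Those data hold no shared difference between steep and other arrays, so they do not test the fit under it. Motifs were searched in RefSeq promoters (GRCr8). A level summed over a list is log2 of the sum of its markers' linear values.

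Same-number EPO and saline arrays at 2 h deviated together (correlations 0.887, 0.654 and 0.635), but both replicates 1 are steep arrays, and EPO replicate 3 correlated best with saline replicate 2 (0.767). At 6 h the correlations were −0.567, 0.271 and 0.812. Alternatives covered scaling, background correction, filters, variance model, spike-in slope, slide, pairing and each array left out.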

Additional observations from a re-analysis of the deposited data

How the results depend on the processing

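The count of 0 called probes for EPO against saline at 2 h held under all 25 alternatives run, and the smallest adjusted p among them was 0.195, without saline replicate 3. Leaving out 1 array at a time gave 0 to 0 called probes, and 333 to 861 at an unadjusted p under 0.05 in limma; the 861 came without EPO replicate 1. That count was 379 as reported, 88 with each array scaled to its median, 192 with the authors' unscaled table and 815 without slide 5. With the replicate number as a block, the pairing checked under processing, 0 probes were called and 420 had an unadjusted p under 0.05. The slope class as a block gave 489 and leaving out the steep arrays 529. At 6 h, 2 probes were called without the arrays of slide 5, and 0 to 0 when single arrays were left out. The difference between times called 1 probe without saline replicate 3 at 2 h and 0 to 1 when single arrays were left out; the cause of these moves was not tested. Scaling to the median moved the median of all 6 h differences from 0.04 to −0.28, so the directions at 6 h are relative to the 75th percentile.

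Of the 171 named genes, 42 changed sign in at least 1 of the 25 alternatives at 2 h, among them Epor in 6 and Hspa1a in 3; 0 were called. The 34 genes of smallest p or largest difference were chosen for groups that do not overlap, which largely fixes their sign, so it is no measure of stability. The choroid plexus median ran from 0.04 to 1.16. Leaving out probes with saturated spots changed nothing, because none of the 4 such probes was among those tested. The planned slope without the lowest and highest spike-in amounts was not run, because the slope is the scanner software's own fit. Signal over background limits the rest: 11015 of 12397 genes were well above background on all 6 arrays.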
